A study of Homo sapiens with 16 samples.

Results

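RT112 is an established human bladder cancer (BC) cell line, and its control cells were compared here with the control cells of the other 3 BC cell lines of the study, 253J, J82 and TCCSUP. The members are the 2 RT112 control libraries, chosen by cell line and treatment in the sample labels, of 8 control libraries and 16 libraries in all. The reference is the mean of the 3 line means, so that each other line weighs the same. For calls and fold changes this mean was taken on the log scale, where a line at or near 0 lowers it strongly. A gene called higher than the mean can therefore lie near or below another line. Control cells of all 4 lines are listed with the vehicle, 0.01% DMSO, for 48 h, while the paper's figure legends for these data call them untreated. The study's other 8 libraries came from cells given CM-1758, a histone deacetylase inhibitor. All lines carry the genotype label WT. RT112, 253J and J82 were grown in DMEM and TCCSUP in EMEM, so for TCCSUP the medium and the line cannot be told apart. Each line is 1 cell line with 2 libraries from independent experiments, so the p-values below cover the spread between cultures of a line and not the spread between tumours.

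The urothelium that lines the bladder is a stratified epithelium. Its basal layer carries keratins such as KRT5 and the transcription factor TP63, and its umbrella cells carry uroplakins, the membrane proteins of the apical plaque. GATA3, FOXA1 and PPARG drive the luminal program, while GRHL2, OVOL1 and ESRP1 keep genes in the epithelial state. In epithelial-mesenchymal transition (EMT), ZEB1, ZEB2, TWIST1 and the SNAI proteins repress genes such as CDH1 through the E-box sequence, and VIM and CDH2 are the usual marks of the mesenchymal state. The microRNAs of the miR-200 family and miR-205 act on ZEB1 and ZEB2 transcripts.

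RNA was sequenced from total RNA after ribosomal RNA depletion. The values are counts per gene, given as CPM, counts scaled to the TMM-adjusted size of the 8 control libraries, and levels are compared only for the same gene between libraries. Control libraries held 27655401 to 32537104 counts, with 30502612 and 28631542 in RT112. The log2 CPM of 2 libraries of a line correlated across genes with r between 0.9897 and 0.9963. At these depths 3 counts were 0.091 and 0.0947 CPM in the RT112 libraries, and a fold against libraries at 0 is given only as a bound against 3 counts per library, which covers counting error only. In bulk RNA, fewer cells with a transcript and less transcript per cell cannot be told apart.

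A gene was called higher or lower in RT112 at a log2 fold change beyond 2 or -2 and an adjusted p under 0.01 in the quasi-likelihood test of edgeR, with Benjamini-Hochberg adjustment over all 18307 tested genes. Against the mean of the other lines, 2012 genes (11%) were higher and 1356 (7.41%) were lower. Against each of the other 3 lines, 811 genes (4.43%) were higher and 626 (3.42%) were lower. These shares are the background for each list below, and the median log2 fold change over all tested genes was 0.016.

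Epithelial genes set RT112 apart from the other lines. Of 141 genes on 10 epithelial lists, 138 were tested, 106 (76.8%) were higher in RT112 than the mean of the other lines against 11% of all genes, and 1 was lower. Against each other line, 76 (55.1%) were higher and 0 were lower, beside backgrounds of 4.43% and 3.42%. The median log2 fold change of the 138 genes was 5.46, or 4.36 with genes at 0 in a line held at their bound. Of 60 genes on 3 mesenchymal lists, 56 were tested. Of these, 22 (39.3%) were lower than the mean and 10 (17.9%) were higher, beside backgrounds of 7.41% and 11%. Compared with each other line, 16 (28.6%) were lower and 2 (3.57%) were higher, beside 3.42% and 4.43%. The median over the 56 genes was -3.98, or -3.82 with the bounds. The lists therefore moved unequally, with 76.8% of the epithelial genes higher and 39.3% of the mesenchymal genes lower. The lists were chosen with earlier results of these data known, so these shares are a description and not an independent test.

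**Figure D1:**
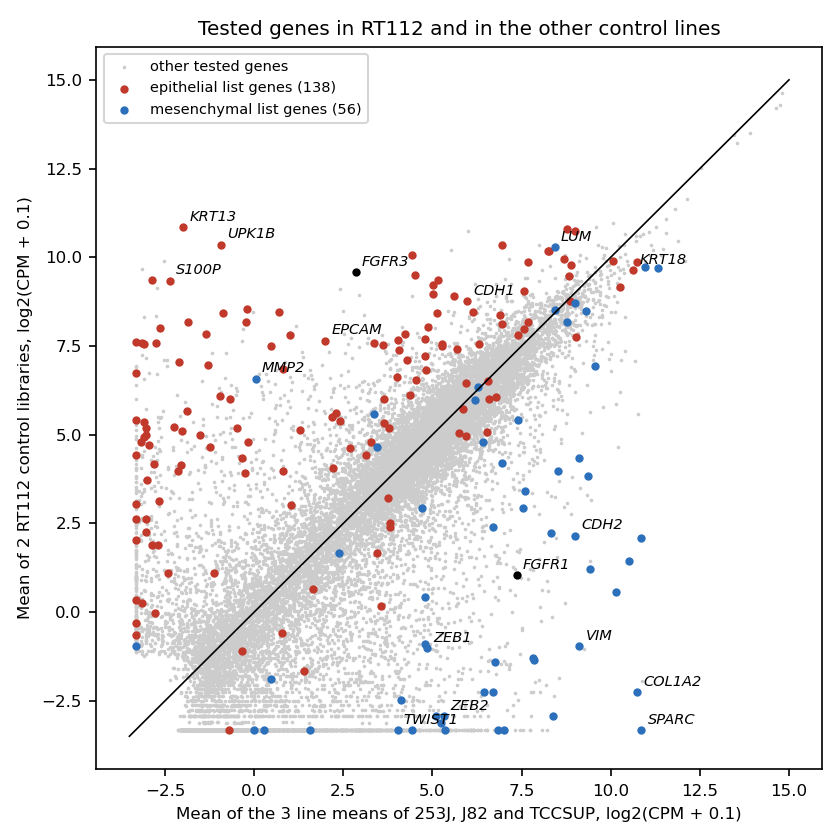
Levels of the 18307 tested genes in RT112 (y axis, mean of 2 control libraries) against the mean of the 3 other line means (x axis), both as log2(CPM + 0.1), with 138 epithelial list genes in red, 56 mesenchymal list genes in blue, FGFR3 and FGFR1 in black and the line of equal levels. Most red points lie above the line, many of them at the left edge where the other lines were at or near 0, while blue points lie on both sides and SPARC and TWIST1 lie at the bottom edge, at 0 in RT112.

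The 3 other lines gave unlike references. Against 253J, 2007 genes (11%) were higher in RT112 and 2191 (12%) were lower, and of the epithelial list genes 91 (65.9%) were higher and 2 were lower. Against J82, 2013 genes (11%) were higher and 1888 (10.3%) were lower, with 106 epithelial list genes (76.8%) higher and 2 lower. Against TCCSUP, 1791 genes (9.78%) were higher and 2269 (12.4%) were lower, with 97 epithelial list genes (70.3%) higher and 4 lower. Of the 56 mesenchymal list genes, 23 (41.1%) were lower than in 253J, 27 (48.2%) were lower than in J82 and 44 (78.6%) were lower than in TCCSUP. These comparisons share the RT112 libraries.

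Uroplakins and other umbrella cell genes were present in RT112 and near 0 elsewhere. Of 9 genes, 8 were tested and 7 were higher than in each other line. UPK1B, a tetraspanin of the urothelial plaque, had 1204 and 1413 CPM in the RT112 libraries, 0 in the 4 libraries of 253J and J82, and 1.84 and 0.726 CPM in TCCSUP (edgeR adjusted p 1.04e-08). The groups did not overlap, and 4.43% of all tested genes were called higher than in each other line. UPK3B had 62.5 and 73.9 CPM in RT112 and at most 0.827 CPM elsewhere, with a log2 fold change of 7.67 ± 0.17 (SE, adjusted p 1.81e-09). VSIG2 had 32.2 and 31.2 CPM against at most 0.101, and SNX31 had 7.46 and 4.73 CPM against at most 0.136. UPK1A, the partner of UPK2 in the plaque, had 4.52 and 4.86 CPM against at most 0.102. UPK2, with 3.76 and 4.23 CPM, and KRT20, a keratin of umbrella cells with 6.004 and 6.123 CPM, had no count in the 6 other libraries. Their levels were at least 38.02-fold and at least 57.71-fold above 3 counts per library. UPK3A was too low in all lines to be tested, and BHMT, at 0 in RT112, was not called.

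Epithelial transcription factors formed the list with the largest share of calls among those with 20 genes. Of its 20 genes, 18 were higher than the mean, 15 were higher than in each other line and 0 were lower. GRHL2, which maintains epithelial junction genes, had 181 and 206 CPM in RT112 and at most 0.254 CPM elsewhere. EHF, an ETS factor of epithelia, had 301 and 274 CPM against at most 2.11, and TP63, the basal cell factor, had 126 and 124 CPM against at most 1.05. Each of these was at or near 0 in all 6 other libraries. TFAP2C had 27.7 and 33.5 CPM against at most 0.102, and OVOL1, a repressor of mesenchymal genes, had 21.5 and 31.0 CPM against at most 0.108.

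The luminal factors were higher in RT112 too, and other lines also held them. GATA3 had 33.8 and 35.8 CPM in RT112, 0.303 and 0.396 in 253J, 1.36 and 0 in J82, and 5.18 and 6.75 in TCCSUP (log2 fold change 4.95 ± 0.45, SE). FOXA1, a pioneer factor, had 41.6 and 41.3 CPM in RT112 and 1.08 to 9.43 CPM elsewhere (3.41 ± 0.12). Both passed the limits against each other line. PPARG, a nuclear receptor of urothelial differentiation, had 179.7 and 199.5 CPM in RT112, 5.33 and 6.30 in 253J, 21.9 and 29.1 in J82, and 88.7 and 79.9 in TCCSUP (3.03 ± 0.12). It was higher than the mean but not called against each line, TCCSUP being nearest. ELF3 (5.5 ± 0.22), KLF5 (3.56 ± 0.11) and GRHL1 (3.41 ± 0.12) were higher than in each other line. KLF4 and TFAP2A were not called, with 4.70 and 5.65 CPM and 4.73 and 6.47 CPM in RT112, inside the range of the other lines for both.

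The basal and stratified keratins were higher in RT112. All 10 were tested, 10 were higher than the mean and 9 were higher than in each other line. KRT13, a keratin of stratified epithelia and of intermediate urothelial cells, had 1788 and 1920.3 CPM in RT112, 0 in 253J and J82, and 0.0751 and 0.835 in TCCSUP. KRT5, of basal cells, had 252 and 263 CPM against at most 0.363, and KRT4 had 187 and 195 CPM against at most 0.0726. KRT17 had 989 and 1141 CPM in RT112, 0 in 253J, 58.0 and 43.1 in J82, and 14.4 and 13.2 in TCCSUP. KRT16 (19.6 and 35.5 CPM against at most 0.0653) and KRT6A (20.4 and 22.1 CPM against 0) were also high only in the RT112 libraries. The KRT6 genes are near-identical copies, and so are KRT16 and its pseudogenes, so reads may have been split between them. KRT15 was the exception, with 15.9 and 17.3 CPM in RT112 and 13.3 and 12.0 CPM in 253J.

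Of the keratins of simple epithelia, KRT8 and KRT18 were held by all 4 lines. Of the 7 genes on the list, 4 were higher than the mean, 2 of them (KRT20 and KRT23) than in each other line. KRT8 had 918 and 999 CPM in RT112, 397 and 286 in 253J, 2367 and 3059 in J82, and 170.0 and 159.8 in TCCSUP (0.84 ± 0.15, adjusted p 0.000858, not called). On the arithmetic mean of CPM its difference turned to -0.16, and without TCCSUP it was -0.01. KRT18, its partner, had 764 and 826 CPM in RT112 and 854 to 2603 CPM elsewhere (-0.91 ± 0.19, not called). KRT7 had 1637 and 1794 CPM in RT112 and 1271 and 1789 CPM in J82, but 4.21 to 5.84 CPM in 253J and TCCSUP. KRT19 had 1852 and 1695 CPM in RT112 and 106 to 849 CPM elsewhere (2.46 ± 0.17). KRT8 and KRT18 thus did not mark RT112 among these lines, and KRT7 marked RT112 and J82.

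**Figure D2:**
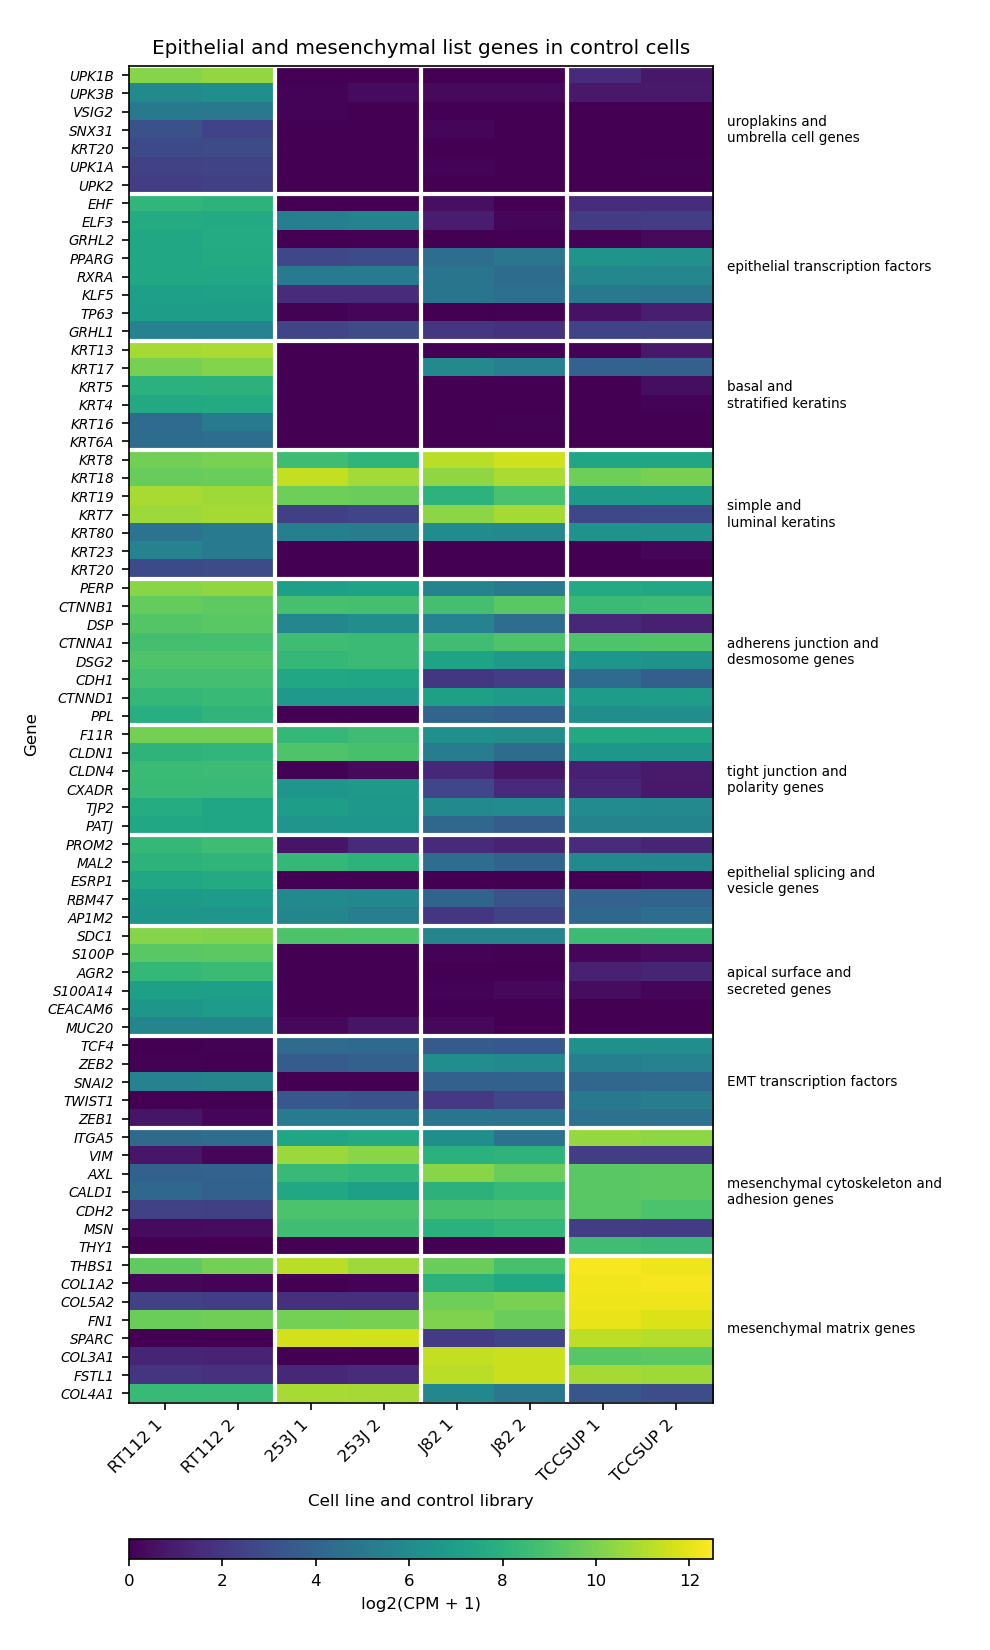
Levels of epithelial and mesenchymal list genes (rows, grouped by list) in the 8 control libraries (columns, 2 for each line), as log2(CPM + 1) from dark (0) to yellow. The uroplakins and the basal keratins are bright in the RT112 columns and dark in nearly all others, KRT8 and KRT18 are bright in all 8, and TWIST1, ZEB2, TCF4 and SPARC are dark in RT112.

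Most of the cell junction genes were higher in RT112. Of 20 adherens junction and desmosome genes, 15 were higher than the mean and 8 were higher than in each other line. CDH1, the E-cadherin of adherens junctions, had 427 and 440.4 CPM in RT112, 178 and 161 in 253J, 3.02 and 3.82 in J82, and 19.6 and 12.9 in TCCSUP (4.36 ± 0.14, adjusted p 7.64e-09). RT112 was highest, but 253J also held CDH1 and the limits were not passed against it. EPCAM, an adhesion molecule used to mark epithelial cells, had 197 and 205 CPM in RT112, 0.371 to 1.44 in 253J and J82, and 9.81 and 10.4 in TCCSUP (6.88 ± 0.15). DSP, which ties desmosomes to keratin, had 561 and 627 CPM in RT112 and 1.13 to 70.1 CPM elsewhere (5.40 ± 0.23). EVPL, a cornified envelope protein of the plakin family, had 178 and 211 CPM in RT112 and no count in the other lines, so that it was at least 1850-fold higher. PKP1, a desmosomal plaque protein, had 64.7 and 62.8 CPM against at most 1.02 (7.56 ± 0.15). The catenins CTNNA1 (442 and 432 CPM), CTNNB1 (751 and 672 CPM) and CTNND1 were not called.

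Of 20 tight junction and polarity genes, 12 were higher than the mean and 6 were higher than in each other line. CLDN4 had 365 and 379 CPM in RT112 and at most 1.63 CPM elsewhere (9.35 ± 0.23, adjusted p 2.09e-09). CLDN7 had 107 and 123 CPM against at most 4.81, and MARVELD3, a tricellulin relative, had 40.0 and 32.2 CPM against at most 0.0678. CRB3, an apical polarity protein, had 15.7 CPM in both RT112 libraries and at most 0.337 CPM elsewhere. Claudin genes did not move as one, since CLDN1 (283 and 294 CPM in RT112, 533 and 457 in 253J) and CLDN3 (0.394 and 0.347 CPM in RT112) were not called.

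Genes that act on epithelial splicing and vesicle traffic gave 11 of 14 higher than the mean, 7 higher than in each other line and 1 lower. ESRP1, which sets epithelial exon choice, had 176 and 200.4 CPM in RT112 and at most 0.109 CPM elsewhere. Its relative ESRP2 had 34.1 and 38.8 CPM against at most 1.47 (6.47 ± 0.22). RAB25, a GTPase of apical recycling, had 44.2 and 40.2 CPM and no count in the other lines, at least 401.9-fold higher. MYO5C, a myosin of epithelial secretory vesicles, went the other way, with 0.970 and 1.07 CPM in RT112 and 2.09 to 17.0 CPM elsewhere (-3.14 ± 0.27). It was the single epithelial list gene called lower.

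At the basal side, 5 of 12 hemidesmosome and basement membrane genes were higher than the mean and 3 were higher than in each other line. COL17A1, a hemidesmosome collagen, had 192 and 171 CPM against at most 2.22 (7.23 ± 0.17). ITGB4, the integrin of hemidesmosomes, had 629 and 822 CPM against 3.92 to 38.0 (5.41 ± 0.18). LAMB3, a chain of laminin-332, had 458 and 533 CPM against 4.15 to 64.9 (4.35 ± 0.25). The chain LAMA3 and the integrins ITGA3 and ITGA6 were not called.

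All 12 epithelial proteases and protease inhibitors were higher than the mean, and 9 were higher than in each other line. TMPRSS4, a membrane serine protease, had 653 and 652 CPM in RT112 and at most 0.218 CPM elsewhere. ST14 (matriptase) had 218 and 236 CPM against at most 0.977, and PRSS8 (prostasin) had 35.9 and 31.9 CPM against at most 0.327. SPINT1, an inhibitor of matriptase, had 172 and 200.2 CPM in RT112 and up to 35.8 CPM in TCCSUP.

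Of 18 apical surface and secreted genes, 16 were tested, 13 were higher than the mean and 11 were higher than in each other line. CEACAM6 had 97.9 and 115 CPM and no count elsewhere, at least 1013-fold higher. S100P had 639 and 654 CPM against at most 0.290, and AGR2, a protein of mucin folding, had 323 and 365 CPM against at most 1.42. The mucin genes MUC1 (1.15 and 1.80 CPM) and MUC4 (0.667 and 0.473 CPM) were not called.

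**Figure D3:**
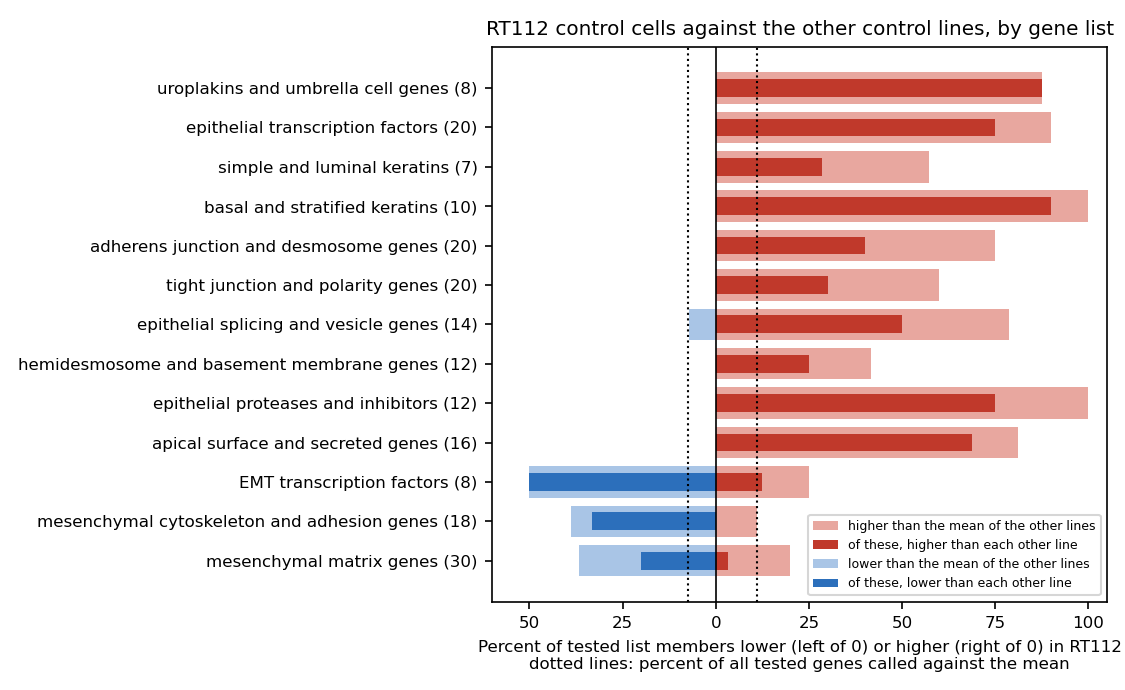
Percent of tested members of each list (number tested in parentheses) called lower (left of 0) or higher (right of 0) in RT112 than the mean of the other lines, with inner bars for those called against each other line and dotted lines at the background of 11% and 7.41%. The bars of all 10 epithelial lists reach past the upper background, the basal keratins and the proteases to 100%, and the 3 mesenchymal lists reach past the lower one. To the right, the EMT factors (25%) and the matrix genes (20%) also pass the upper background, and the cytoskeleton and adhesion genes (11.1%) lie at it.

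Promoter sequences of the epithelial genes are shown because the EMT repressors named above recognise the E-box. The motif was searched as CACCTG or CAGGTG, which are the same site on opposite strands and cannot overlap, in the 250 bases before the transcript start of RefSeq promoters (GRCh38.p14). It was present in 4781 of 27305 promoters (17.5%), in 16.2% of the 12715 promoters found for tested genes, in 32 of 80 promoters found for epithelial list genes (40.0%) and in 4 of 37 found for mesenchymal list genes (10.8%). Among epithelial list genes it was in 25 of 58 promoters (43.1%) of genes called higher and in 7 of 22 (31.8%) of the others. At least 2 copies were present in 2.55% of all promoters and in 11.2% of those of epithelial list genes. A match is a description of these letters and not a measured binding site. The promoters shown, with the motif in capitals, are CRB3, with 5 copies, DSP and LCN2, with 2 each, and RAB25 and UPK1B, with 1 each within 41 and 21 bases of the start. All 5 genes were higher in RT112 than in each other line, with LCN2, a secreted iron-carrier protein, at 15.3 and 20.01 CPM against at most 0.327. They are examples, and the number of copies does not follow the calls. AP1M2 and MYO5B, with 3 copies each, and PATJ, with 2, were higher than the mean but not called against each line.
CRB3 (chr19:6464021-6464270, plus strand): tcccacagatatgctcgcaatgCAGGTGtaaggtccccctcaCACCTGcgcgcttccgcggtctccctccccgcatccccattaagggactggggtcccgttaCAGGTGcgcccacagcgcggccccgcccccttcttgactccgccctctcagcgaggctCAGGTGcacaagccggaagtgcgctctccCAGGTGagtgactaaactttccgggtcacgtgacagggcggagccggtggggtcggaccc
DSP (chr6:7541421-7541670, plus strand): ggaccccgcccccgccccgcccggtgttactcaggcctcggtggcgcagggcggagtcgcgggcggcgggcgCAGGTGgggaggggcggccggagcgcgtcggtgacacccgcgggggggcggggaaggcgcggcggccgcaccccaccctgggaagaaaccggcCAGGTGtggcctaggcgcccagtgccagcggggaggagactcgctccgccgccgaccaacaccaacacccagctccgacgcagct
LCN2 (chr9:128149203-128149452, plus strand): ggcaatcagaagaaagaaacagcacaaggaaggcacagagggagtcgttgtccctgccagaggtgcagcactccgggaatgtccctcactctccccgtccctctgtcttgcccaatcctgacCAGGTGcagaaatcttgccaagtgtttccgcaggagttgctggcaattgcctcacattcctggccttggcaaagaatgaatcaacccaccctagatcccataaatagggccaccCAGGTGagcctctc
RAB25 (chr1:156060910-156061159, plus strand): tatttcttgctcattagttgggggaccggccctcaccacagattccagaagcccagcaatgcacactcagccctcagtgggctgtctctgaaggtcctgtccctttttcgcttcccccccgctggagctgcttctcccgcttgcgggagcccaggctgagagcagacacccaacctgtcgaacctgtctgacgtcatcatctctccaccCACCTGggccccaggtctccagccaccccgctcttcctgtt
UPK1B (chr3:119173348-119173597, plus strand): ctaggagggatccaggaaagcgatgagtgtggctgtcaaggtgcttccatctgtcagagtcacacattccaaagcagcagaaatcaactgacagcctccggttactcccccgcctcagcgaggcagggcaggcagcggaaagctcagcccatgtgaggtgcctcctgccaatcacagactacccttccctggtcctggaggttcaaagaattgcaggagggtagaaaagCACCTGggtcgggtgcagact

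The EMT transcription factors were split in RT112, with ZEB1, ZEB2, TWIST1 and TCF4 at or near 0. Of 10 genes, 8 were tested, 4 were lower than in each other line and 2 were higher than the mean. ZEB1 had 0.637 and 0.158 CPM in RT112 and 24.3 to 34.9 CPM in the other 6 libraries (-6.12 ± 0.31, adjusted p 1.13e-07). ZEB2 had 0.0606 and 0 CPM against 11.4 to 68.2, TWIST1 had 0 against 3.19 to 37.8, and TCF4, an E-box factor, had 0 and 0.0631 CPM against 10.0 to 76.2. No RT112 value reached that of another line for these 4 genes, and 3.42% of all tested genes were called lower than in each other line. SNAI2 (SLUG), which basal epithelial cells also use, had 46.4 and 49.8 CPM in RT112, 0 in 253J, 13.1 and 13.5 in J82, and 16.6 and 18.0 in TCCSUP. It was higher than the mean but not called against each line. TWIST2 was called higher at 0.425 and 0.410 CPM, a low level, against 0 in all others.

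Some transcripts that host microRNAs acting on ZEB1 and ZEB2 were higher in RT112, and others were not. MIR205HG had 95.6 and 93.9 CPM (3151 and 2974 counts) in RT112 and at most 0.101 CPM elsewhere. The precursor rows MIR205 (71 and 80 counts) and MIR141 (22 and 18 counts) and the host transcript MIR200CHG (215 and 204 counts) were at 0 to 5 counts in the 6 other libraries. The other miR-200 rows were low in all lines. MIR200C had 6 and 3 counts in RT112 and 0 elsewhere, MIR200B had 6 and 5 counts in RT112 and 7 and 4 in 253J, MIR200A had 6 and 4 against 6 and 6, and MIR429 had 5 and 10 against 12 and 7, all 3 at 0 in J82 and TCCSUP. MIR429 was not called, and MIR200A, MIR200B and MIR200C were too low to be tested. Mature microRNAs were not measured in these libraries. The mature sequences from RefSeq (GRCh38.p14) are shown with the seed, bases 2 to 8, in capitals. The seeds of miR-141-3p and miR-200c-3p are not the same, and that of miR-205-5p is unlike both.
hsa-miR-205-5p (chr1:209432166-209432187, plus strand): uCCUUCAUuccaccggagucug
hsa-miR-141-3p (chr12:6964155-6964176, plus strand): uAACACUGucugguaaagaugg
hsa-miR-200c-3p (chr12:6963742-6963764, plus strand): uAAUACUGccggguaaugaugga

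Of 20 mesenchymal cytoskeleton and adhesion genes, 18 were tested, 7 were lower than the mean, 6 of them than in each other line, and 2 were higher. VIM, the intermediate filament of mesenchymal cells, had 0.667 and 0.158 CPM in RT112, 1573 and 1229 in 253J, 248 and 282 in J82, and 3.76 and 3.56 in TCCSUP (-8.04 ± 0.36). TCCSUP was therefore also low in VIM, and RT112 lay below it. CDH2, the N-cadherin, had 4.49 and 4.23 CPM in RT112 and 458 to 604 CPM in the other lines (-6.86 ± 0.18, adjusted p 2.27e-09). MSN (moesin) had 0.273 and 0.316 CPM in RT112, 407 in both 253J libraries, 252 and 307 in J82, and 3.76 and 3.70 in TCCSUP (-7.98 ± 0.21). ITGB3 (-9.19 ± 0.33), AXL (-5.40 ± 0.22) and CALD1 (-4.30 ± 0.21) were lower than in each other line.

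Matrix genes were split. Of 30 genes, 11 were lower than the mean and 6 were lower than in each other line, while 6 were higher than the mean and 1 was higher than in each other line. SPARC, a secreted matrix glycoprotein, had 0 counts in both RT112 libraries, 3356 and 3171 CPM in 253J, 3.66 and 4.96 in J82, and 2406 and 2180.4 in TCCSUP. LOXL2, a collagen crosslinking enzyme, had 0.243 and 0.379 CPM against 128 to 289 (-9.48 ± 0.39), and FBN1 (fibrillin) had 2.37 and 2.11 CPM against 148 to 1799 (-7.49 ± 0.23). The higher genes included MMP2, a gelatinase, with 93.3 and 97.8 CPM in RT112 and at most 3.63 CPM elsewhere. LUM (lumican) had 1264 and 1239 CPM in RT112, 0 in 253J, 59.7 and 58.4 in J82, and 1021 and 923 in TCCSUP, so that TCCSUP was near RT112. COL4A1, a basement membrane collagen, had 353 and 357 CPM in RT112, 1882 and 1780.3 in 253J, 55.9 and 30.8 in J82, and 9.09 and 6.82 in TCCSUP. It was called higher on the log scale (2.05 ± 0.19), but on the arithmetic mean of CPM its difference turned to -0.82, with 253J above RT112, and it lost its call at 1.93 without J82 replicate 3 and at 1.99 without TCCSUP replicate 2. FN1 (fibronectin) had 816 and 888 CPM in RT112 and 795 to 4367 CPM elsewhere, and was not called.

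Receptor tyrosine kinases showed an exchange of FGF receptors between RT112 and the other lines. Of 15 genes, 6 were higher than the mean and 2 were lower, and 3 were higher and 2 lower than in each other line. FGFR3, which binds FGFs and is a known oncogene of BC, had 769 and 752 CPM in RT112, 7.25 and 8.68 in 253J, 12.0 and 10.9 in J82, and 1.503 and 2.25 in TCCSUP (7.10 ± 0.13, adjusted p 1.46e-09). FGFR1 had 1.55 and 2.40 CPM in RT112, 155 in both 253J libraries, 166 and 113 in J82, and 205 and 192 in TCCSUP (-6.37 ± 0.26, adjusted p 2.23e-08). For both genes every RT112 value lay outside the range of the other 6 libraries. Both were called against each other line, which makes such a gap likely, and its share over all genes was not computed. FGFR2 had 74.1 and 67.6 CPM in RT112, 155 and 139.7 in 253J, 0 in J82, and 3.64 and 1.81 in TCCSUP. It was higher than the mean on the log scale, with J82 at 0, but lay below 253J.

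ERBB3, the kinase-poor partner of ERBB2, had 186 and 197 CPM in RT112 and 0.762 to 16.8 CPM elsewhere (5.08 ± 0.19). MST1R (RON) had 39.5 and 49.99 CPM against at most 2.10 (6.32 ± 0.26). DDR2, a fibrillar collagen receptor, was lower than in each other line, with 0.334 and 0 CPM, whereas its relative DDR1, used by epithelia, was higher than the mean (2.15 ± 0.13). EGFR had 287 and 297 CPM in RT112, within the 152 to 347 CPM of the others, and ERBB2 had 205 and 206 CPM against 60.1 to 119 (1.35 ± 0.11), under the limit of 2. MET (453 and 434 CPM against 489.8 to 1100.5) was not called.

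**Figure D4:**
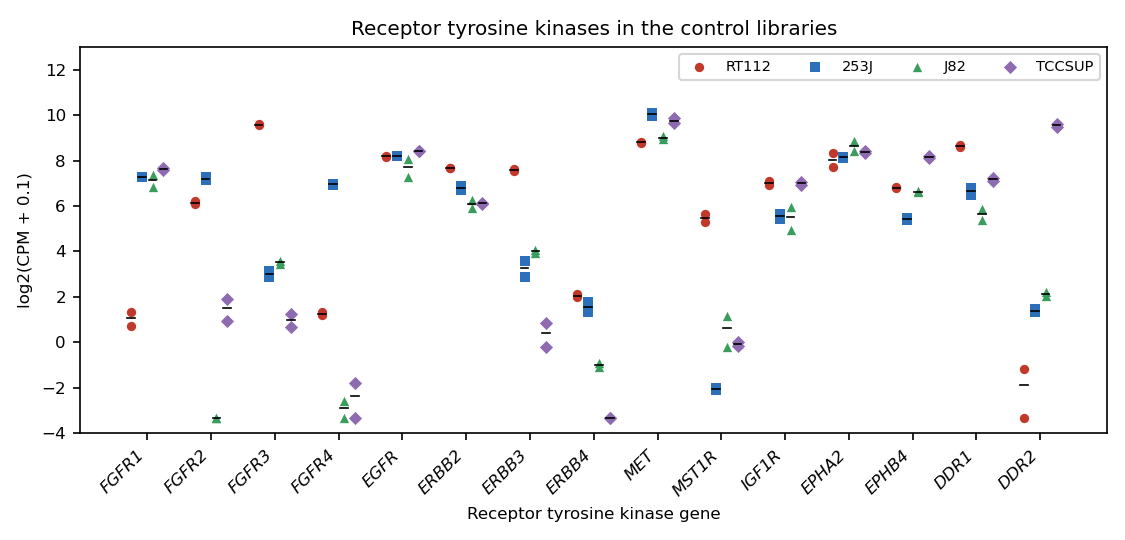
Levels of 15 receptor tyrosine kinase genes in each control library as log2(CPM + 0.1), with 1 symbol per library, a colour per line and a short bar at the mean of the 2 libraries. RT112 (red circles) stands far above the other lines for FGFR3, ERBB3 and MST1R and far below them for FGFR1, and sits among them for EGFR.

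Genes that respond to FGF and ERK signalling did not move as a group. Of 15, 3 were higher than the mean and 2 were lower, a share of higher calls of 20% beside 11% of all genes. FGFBP1, a secreted FGF carrier, had 102 and 122 CPM in RT112 and at most 3.76 CPM elsewhere (7.01 ± 0.22) and was higher than in each other line. DUSP6, the ERK phosphatase, had 199 and 173 CPM against 6.40 to 82.04 (3.13 ± 0.10), and TACC3, the neighbour of FGFR3 and its known fusion partner, had 273 and 262 CPM against 29.8 to 94.7 (2.35 ± 0.12). Fusion transcripts cannot be read from counts per gene. ETV1 (-5.40 ± 0.28) and SPRY2 (-2.43 ± 0.14) were lower, and ETV4 (1.97 ± 0.13) lay just under the limit, which it passed at 2.03 without 253J replicate 3.

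Genes missing from RT112 were taken as those with at most 3 counts in each RT112 control library and at least 1 CPM in each of the 6 other libraries, which 111 genes met, 82 of them at 0 in both RT112 libraries. This rule used the values, so they are described and not tested. Of the 111, 4 were on the mesenchymal lists (SPARC, TWIST1, ZEB2 and TCF4) and 0 were on the epithelial lists. The 111 are few among the 16643 genes at 1 CPM or more in a control library. A count of 0 on lists of this size is therefore no result about the epithelial genes. Ranked by the mean of the lowest other line, the first was TENM3, a teneurin adhesion protein, at 0 in RT112, 111 and 121 CPM in 253J, 189 and 128 in J82, and 613 and 606 in TCCSUP, at least 1253-fold below the lowest line. FGF2, the basic fibroblast growth factor and a ligand of FGFR1, was at 0 against 97.4 to 386 CPM, at least 1178-fold lower. ALPK2, an alpha kinase, was at 0 against 88.9 to 185 CPM, and PSIP1 (LEDGF), a chromatin reader, was at 0 against 81.3 to 252 CPM, at least 888.2-fold lower.

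Further missing genes with high levels in the other lines came from many classes. IGFN1, ARSD, CNTLN, ME3, ARSJ, PTGR1, PARP6 and GNG11 were at 0 in RT112 and were at least 604.1-, 354.9-, 338.5-, 320.5-, 311.7-, 287.3-, 280.7- and 267.6-fold below the lowest line. ME3 is a mitochondrial malic enzyme, PTGR1 a prostaglandin and leukotriene reductase, and GNG11 a G protein gamma subunit. DOCK10, CCBE1 and IGFBP7, a secreted IGF-binding protein, each had 2 counts in 1 RT112 library and 0 in the other, against at least 45.3, 39.7 and 15.3 CPM in the others. NAV3 was also at 0 in RT112 against 10.3 to 121 CPM and, among genes called lower than in each line with at least 10 CPM in the lowest other line, was 1 of the 10 with the smallest fitted log2 fold change, with TENM3, FGF2, ALPK2, PSIP1, IGFN1, MTAP, ARSJ, PTGR1 and ME3. The limit of 10 CPM left out SPARC, and the order rests on fits with RT112 at 0 counts.

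Missing genes that were neighbours among expressed genes in the reference order formed 5 runs of 12 genes. On chromosome 9, PSIP1, CCDC171 and BNC2 formed a run after SNAPC3, and MIR31HG, IFNE and MTAP formed another after KLHL9. The other runs were LRMDA and KCNMA1 on chromosome 10, CCDC122 and LACC1 on chromosome 13, and PTPRG-AS1 and C3orf14 on chromosome 3. Chromosome 9 held 12 missing genes, 1.8% of its 665 expressed genes, while chromosome 18 held 5 of 240 (2.08%) and chromosome X 9 of 592 (1.52%). These were the largest shares, and other chromosomes with missing genes held 0.21% to 1.37%. Over the whole reference order, 111 of 16397 expressed genes were missing.

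On the short arm of chromosome 9, all expressed genes of 2 stretches had at most 2 counts in RT112. The stretches were laid out after the runs had been seen. In the first, between SNAPC3 and RRAGA, lie PSIP1, CCDC171, BNC2, BNC2-AS1, CNTLN, SH3GL2 and ADAMTSL1, all at 0 to 2 counts. Some of these were low elsewhere too. SH3GL2 was also at 0 in TCCSUP, and BNC2-AS1 and ADAMTSL1 fell to 9 and 10 counts in a library of another line. In the second, between KLHL9 and LOC101929563, lie MIR31HG, IFNE, MTAP, CDKN2A, CDKN2B-AS1, CDKN2B, UBA52P6, DMRTA1 and LINC01239, all at 0 to 2 counts. Here CDKN2A was also at 0 in 253J, and UBA52P6 and LINC01239 fell to 15 and 13 counts in a library of another line. Genes next to the stretches were present in RT112. SNAPC3 had 40.9 and 45.2 CPM, RRAGA 37.9 and 32.8 CPM, KLHL9 98.2 and 80.0 CPM and ELAVL2 21.7 and 18.5 CPM, each within or near the range of the other lines. Between the stretches, HAUS6 (106 and 99.7 CPM), DENND4C, RPS6, MLLT3 and FOCAD were present, while PLIN2 (4 and 0 counts), HACD4 (0 counts) and IFNB1 (0 and 2 counts) had almost none. In the other lines PLIN2 had 376 to 2769 counts, but HACD4 was also at 0 in 253J and IFNB1 had only 2 to 47 counts.

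**Figure D5:**
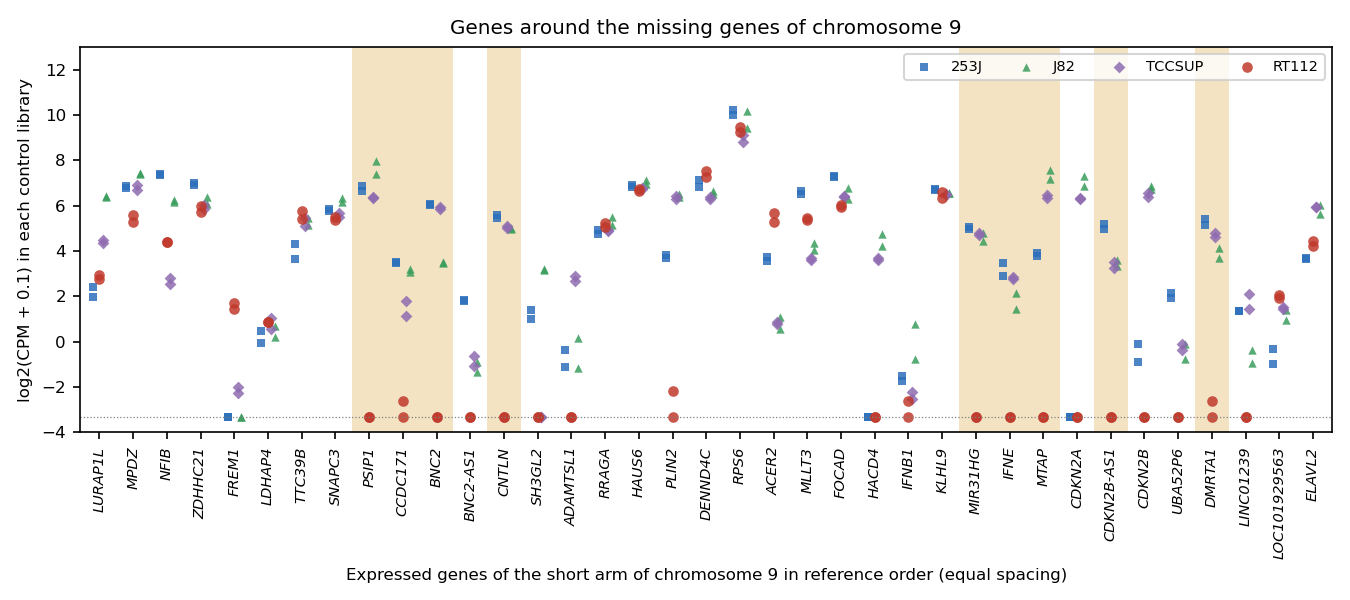
Levels of expressed genes of the short arm of chromosome 9 in reference order (x axis, equal spacing) in each control library as log2(CPM + 0.1), with the dotted line at 0 counts. RT112 lies on or near the dotted line from PSIP1 to ADAMTSL1 and from MIR31HG to LINC01239, and among the other lines at KLHL9, SNAPC3 and RRAGA.

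MTAP, an enzyme of methionine salvage, was at 0 in RT112 against 13.5 and 14.9 CPM in 253J, 144 and 191 in J82, and 80.3 and 88.9 in TCCSUP. CDKN2A, which encodes p16 and ARF, was at 0 in RT112 and also at 0 in 253J, against 115 and 157 CPM in J82 and 81.0 and 77.8 in TCCSUP. For that reason it did not count as missing, and its fold change against the mean has no estimate. CDKN2B, which encodes p15, was at 0 in RT112, 0.438 and 0.828 CPM in 253J, 107 and 116 in J82, and 94.1 and 84.0 in TCCSUP, and was called lower than in each line. In the RT112 libraries given CM-1758, all genes of the second stretch were at 0, and in the first stretch PSIP1 had 0 and 5 counts, CCDC171 2 and 14, BNC2 9 and 0, CNTLN 6 and 10, and ADAMTSL1 4 and 19, with BNC2-AS1 and SH3GL2 at 0. Counts of RNA cannot tell a gene absent from the DNA from a silent one, and DNA copy number was not tested.

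Of 22 tumor suppressor genes of bladder cancer, 2 were lower (CDKN2B and MTAP) and 2 were higher than the mean (FAT1, 3.18 ± 0.15, and TXNIP, 2.64 ± 0.11), shares of 9.09% each beside backgrounds of 7.41% and 11%. RB1 had 53.9 and 54.0 CPM in RT112 against 21.4 to 82.3, and TSC1 had 53.3 and 50.1 CPM against 56.4 to 91.1. Neither was called.

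By the reverse rule, at least 1 CPM in both RT112 libraries and at most 3 counts in each of the 6 others, 159 genes were found in RT112 only, 100 of them with no count in any other control library. Of the 159, 19 were on the epithelial lists, among them EVPL, KRT4, ESRP1, CEACAM6, RAB25, TFAP2C, OVOL1, GRHL3, UPK1A, UPK2 and KRT20, and 0 were on the mesenchymal lists. The 159 are also few among the 16643 genes at 1 CPM or more in a control library, so that 0 is no result about the mesenchymal genes. In both RT112 libraries given CM-1758, 151 of the 159 had more than 3 counts. The genes with the highest RT112 levels included several of stratified epithelium. S100A9, a calcium-binding alarmin of squamous cells and neutrophils, had 808 and 816 CPM against at most 0.0726. LY6D, a surface protein of stratified epithelia, had 283 and 353 CPM against at most 0.109, and IVL (involucrin), of the cornified envelope, had 118 and 126 CPM against 0, at least 1161-fold higher.

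The other genes of this group had mixed roles. GJB6, a connexin of stratified epithelia, had 139.6 and 166 CPM against at most 0.0726, and BMP3, a BMP family ligand, had 161 and 123 CPM against at most 0.0720. BCAS1 (131 and 108 CPM), GPX2, a glutathione peroxidase of epithelia (81.5 and 88.1 CPM), and TC2N (63.9 and 64.2 CPM) had no count elsewhere, and TMEM30B, a lipid flippase subunit, had 103 and 111 CPM against at most 0.109. FABP4, a fatty acid carrier and PPARG target, had 944 and 965 CPM in RT112 and at most 0.436 CPM elsewhere. It was over the count limit in 1 TCCSUP library but, among genes called higher than in each line with at least 10 CPM in RT112, was 1 of the 10 with the largest fitted log2 fold change, with KRT13, S100A9, TMPRSS4, UPK1B, EVPL, LY6D, IVL, BCAS1 and CEACAM6.

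Markers of other cell types were mostly at or near 0 in RT112. Of 10 fibroblast markers, PDGFRA, PDGFRB, THY1 and TCF21 were at 0 in both libraries, and the summed level of 1271 and 1246 CPM (28.31 to 8482 CPM elsewhere) came almost wholly from LUM. The 7 smooth muscle markers summed to 19.5 and 20.26 CPM (8.099 to 366.6 elsewhere), with MYH11, CNN1 and MYOCD at 0. The 8 endothelial markers summed to 4.579 and 4.008 CPM (2.595 to 215.7 elsewhere), with KDR, TEK, TIE1, CLDN5 and EMCN at 0, although 2 of the 5 tested (40%, beside 4.43%) were higher than in each other line. These were PECAM1, with 1.82 and 2.08 CPM against at most 0.0726, and CDH5, with 2.03 and 1.42 CPM against at most 0.399. The part of other cells in these values was not tested. The 10 leukocyte markers summed to 4.245 and 3.914 CPM (8.03 to 65.16 elsewhere), with CD3E, MS4A1, CD14 and NKG7 among those at 0. Of the 5 tested, LYZ was higher than the mean (20%, beside 11%), and CD14 and CD68 were lower. Only CD68 averaged 1 CPM or more in RT112. The 8 neuroendocrine markers summed to 5.913 and 5.334 CPM (34.94 to 142.6 elsewhere), with INSM1 and NEUROD1 among those at 0. Of the epithelial markers, EPCAM, CDH1, KRT7, KRT8, KRT18, KRT19, GRHL2 and ESRP1 were all present in RT112, as were UPK1A, UPK1B, UPK2, GATA3, PPARG, FOXA1 and KRT20 of the urothelial ones.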

How the data were processed

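The deposited table holds raw read counts, as whole numbers with no normalization, for 35993 gene symbols and 16 libraries, and 5098 of the symbols were at 0 throughout. Libraries were stranded total RNA depleted of ribosomal RNA. The submitters' processing notes name HISAT2, StringTie and GRCh37, and versions and the counting step are not given in the sources used here. Samples were grouped by cell line and treatment from the labels. The members and lists were chosen with earlier results of these data known.

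The 8 control libraries were filtered with filterByExpr, scaled by TMM and fitted with edgeR 4.0.16 (R 4.3.3) with 1 coefficient for each cell line, which left 4 residual degrees of freedom and a common biological coefficient of variation of 0.1478. RT112 was contrasted with the mean of the 3 other coefficients and with each. Calls needed a log2 fold change beyond 2 and an adjusted p under 0.01, the limits the study used. The SE of a fold change was taken as its size over the root of its F statistic. Fitted values are printed only for genes with counts in every line. In 933 tested genes the mean contrast had no usable SE, and 843 tested genes were at 0 both in RT112 and in another line. DESeq2 1.42.0 was an alternative. On simulated counts for the 18307 tested genes, with 200 changed, 200 were recovered and 0 others were called. The changed genes had ample counts and changes larger than the limit, all genes shared the common dispersion, and the lines were otherwise alike. This setting is easier than the data, so it checks the code and gives no error rate for the calls above. The RefSeq order (GRCh38.p14) was used for neighbours and sequences, and no coordinates of the authors' build are given.

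The genes named were the called members with the largest change in each list, those fixed as cell type markers, the 10 most raised and 10 most lowered genes called against each line at 10 CPM or more, the 15 missing and the 15 RT112-only genes with the highest levels, and all genes in runs. Other members are given as examples chosen after their values were seen. XIST, TSIX and Y-linked genes, and some other genes that the rule gives, are not reported here. With 2 libraries for each line, the precision rests on the spread shared over genes.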

Additional observations from a re-analysis of the deposited data

Results flagged for a closer look

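The RT112 libraries given CM-1758 entered no comparison above. In both of them, 57 of the 111 genes missing from the RT112 control libraries had more than 3 counts, and 33 stayed at 3 counts or fewer in both. More genes had counts in the RT112 libraries given CM-1758 (23080 and 23193) than in the RT112 control libraries (20108 and 20316). The share of all genes low in control that passed 3 counts was not computed, so the 57 cannot be read as particular to the missing genes. PAK3 had 0 counts in both control libraries and 1080 and 1186 counts with CM-1758, SOGA3 had 0 counts in control and 305 and 341 with CM-1758, SCN9A had 2 and 0 counts in control and 177 and 215 with CM-1758, and TENM3 had 0 counts in control and 87 and 118 with CM-1758. Of the 6 genes in the chromosome 9 runs, 3 passed 3 counts in a CM-1758 library. These genes were singled out after their values were seen, and the difference was not tested.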

How the results depend on the processing

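Of 1533 values for 73 named genes under the alternatives, 18 fell under the limits, 14 passed them and 3 changed sign. The other 1498 kept their direction and, where the limits were checked, their side of them. On the arithmetic mean of CPM only the direction was compared, and not the limits. The log2 fold change of KRT8, which was not called, was -0.006051 without TCCSUP and -0.163 on the arithmetic mean of CPM, and the log2 fold change of COL4A1 was -0.8221 on that mean. COL4A1 and MAL2 lost their calls without J82, without TCCSUP and with the replicate block. Leaving out J82 replicate 3 ended the calls of MAL2 and COL4A1, and leaving out TCCSUP replicate 2 that of COL4A1. The 106 epithelial list genes higher in RT112 ranged from 101 to 114 over the alternatives, and the 22 mesenchymal list genes lower in RT112 from 21 to 31, with 31 both in DESeq2 and without 253J.

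Lower limits (log2 fold change 1, adjusted p 0.05) gave 3330 genes higher and 2540 lower than the mean, and 1436 higher and 1188 lower than each line. Against 2 lines only, genes lower than each line numbered 1117 without 253J and 1037 without J82. Missing genes numbered 229 without 253J, 180 without J82, 204 without TCCSUP, 178 at 10 counts in RT112, 52 at 5 CPM in the others and 391 where 2 of 3 other lines sufficed. Genes found in RT112 only numbered 240 without 253J, 265 without TCCSUP, 100 at 0 counts, 288 at 10 counts and 75 at 5 CPM. Fewer lines or wider count limits make these rules easier to meet. DESeq2 called 1756 genes higher and 1637 lower than the mean, so that 51.8% of its calls were higher against 59.7%. It called 587 genes higher and 642 lower than each line, against 811 and 626 in the main fit. Library size alone in place of TMM moved the median of all genes from 0.016 to 0.189.

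Without 1 control library, genes higher than the mean numbered 1778 to 2224, lower 1195 to 1418, higher than each line 624 to 788, lower than each line 539 to 662, epithelial genes higher 104 to 107, mesenchymal genes lower 21 to 24, missing genes 111 to 138 and RT112-only genes 168 to 178. A line left with 1 library was assumed to vary like the others.

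Replicate numbers are shared between lines only in part. The deviations of same-numbered libraries correlated between -0.275 and 0.125, so the numbers do not pair the libraries. With the replicate block, 531 genes were higher than each line against 811, and the other counts stayed within 1.5 times.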
